A study of Mus musculus with 23 samples.

Results

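Gene expression was compared between 3 arrays of Wnt3-/- epiblast-like cells titled Wnt3a and 3 arrays of the same cells titled BMP4+Wnt3a, at 12, 24 and 36 h, which are 6 of the 23 arrays of the series. They were chosen by title and paired by time. The labels of these 6 arrays conflict. Title, cytokine text and characteristics name WNT3A alone for the first group and both cytokines for the second, whereas the array names give the reverse at all 3 times. The groups are therefore called by their titles, and a positive difference is a higher signal in the arrays titled Wnt3a. Under the array names that difference is what adding BMP4 to WNT3A changed, and under the titles it is the same with its sign turned. Exchanging the labels alters no size and no p-value of the difference between the 2 groups itself, but it does alter how that difference compares with the response to BMP4 alone, which is given both ways.

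The series used Affymetrix Mouse Genome 430 2.0 arrays on aggregates of epiblast-like cells, which model the epiblast before gastrulation and were made here from male C57BL/6 embryonic stem cells. There was 1 line with intact Wnt3 (+/+, WT) and 1 without it (-/-, KO), so genotype and line cannot be told apart, and both carry the BV transgenes, a Venus reporter driven by Blimp1 regulatory elements. Epiblast-like cells were induced with Activin A and bFGF on fibronectin, then grown as floating aggregates in medium with serum replacement and LIF. To this nothing was added, or BMP4 at 500 ng/ml, or WNT3A at 50 ng/ml, or, in KO cells, both. Under either set of labels all 6 arrays are thus KO cells given WNT3A and LIF, and 3 of them are cells also given BMP4. There is 1 array per condition and time and no replicate, so the 3 times stand in for replicates, within 1 series of cultures.

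BMP ligands bind receptor kinases that phosphorylate SMAD proteins, and these enter the nucleus and switch on targets such as the Id and Msx genes and the feedback inhibitors Smad6 and Smad7. WNT ligands stabilise beta-catenin, which acts with TCF/LEF factors on targets such as Axin2 and Sp5. In the embryo both signals act on the posterior epiblast, where the primitive streak and the germ line arise, while the anterior streak, which gives endoderm and node and expresses Foxa2, forms where BMP activity is low.

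The 6 arrays had median signals between 37.8 and 41.4 and upper quartiles between 254 and 292. Their Gapdh 3' to 5' signal ratio, a measure of RNA quality, was 1.17 to 1.44 in the arrays titled Wnt3a and 1.21 to 1.64 in those titled BMP4+Wnt3a, within the 1.09 to 4.03 of all arrays. The Wnt3 probe set read 15.9 to 27.9 in these arrays, 11.2 to 27.9 in all KO arrays and 10.4 to 146 in WT arrays. The ranges of KO and WT arrays thus overlapped. Which part of Wnt3 was deleted is not stated in the labels, and a probe set outside it would check nothing. The number of arrays limits the precision, and dim signal cannot be told from absence.

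The 4 marker genes separated the groups at every time. Id1, an inhibitor of basic helix-loop-helix factors and a direct BMP target, read 5480, 7591 and 9345 at 12, 24 and 36 h in the arrays titled Wnt3a. It read 186, 256 and 1323 in the arrays titled BMP4+Wnt3a. The first range lies beside that of KO cells with BMP4 alone, 5557 to 10156, and the second begins near that of KO cells without cytokine, 145 to 224, and passes it from 24 h. Id2, of the same family, read 1409, 2504 and 3304 against 84.4, 98.4 and 89.3. With BMP4 alone it read 1771 to 4012 in KO cells, and without cytokine 128 to 345, so the arrays titled BMP4+Wnt3a lay below all KO arrays without cytokine. Msx2, a homeobox gene, read 168, 260 and 885 against 25.6, 20.4 and 24.1. KO cells with BMP4 alone read 34.3 to 491 for Msx2, below the arrays titled Wnt3a at each time. Foxa2, a forkhead factor of endoderm and axial mesoderm, went the other way, with 24.8, 32.0 and 37.5 in the arrays titled Wnt3a and 380, 1552 and 2385 in those titled BMP4+Wnt3a. The 3 BMP-responsive markers were thus high in the arrays whose titles name no BMP4 and low in those whose titles name it, which goes against the titles and not against the array names.

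**Figure D1:**
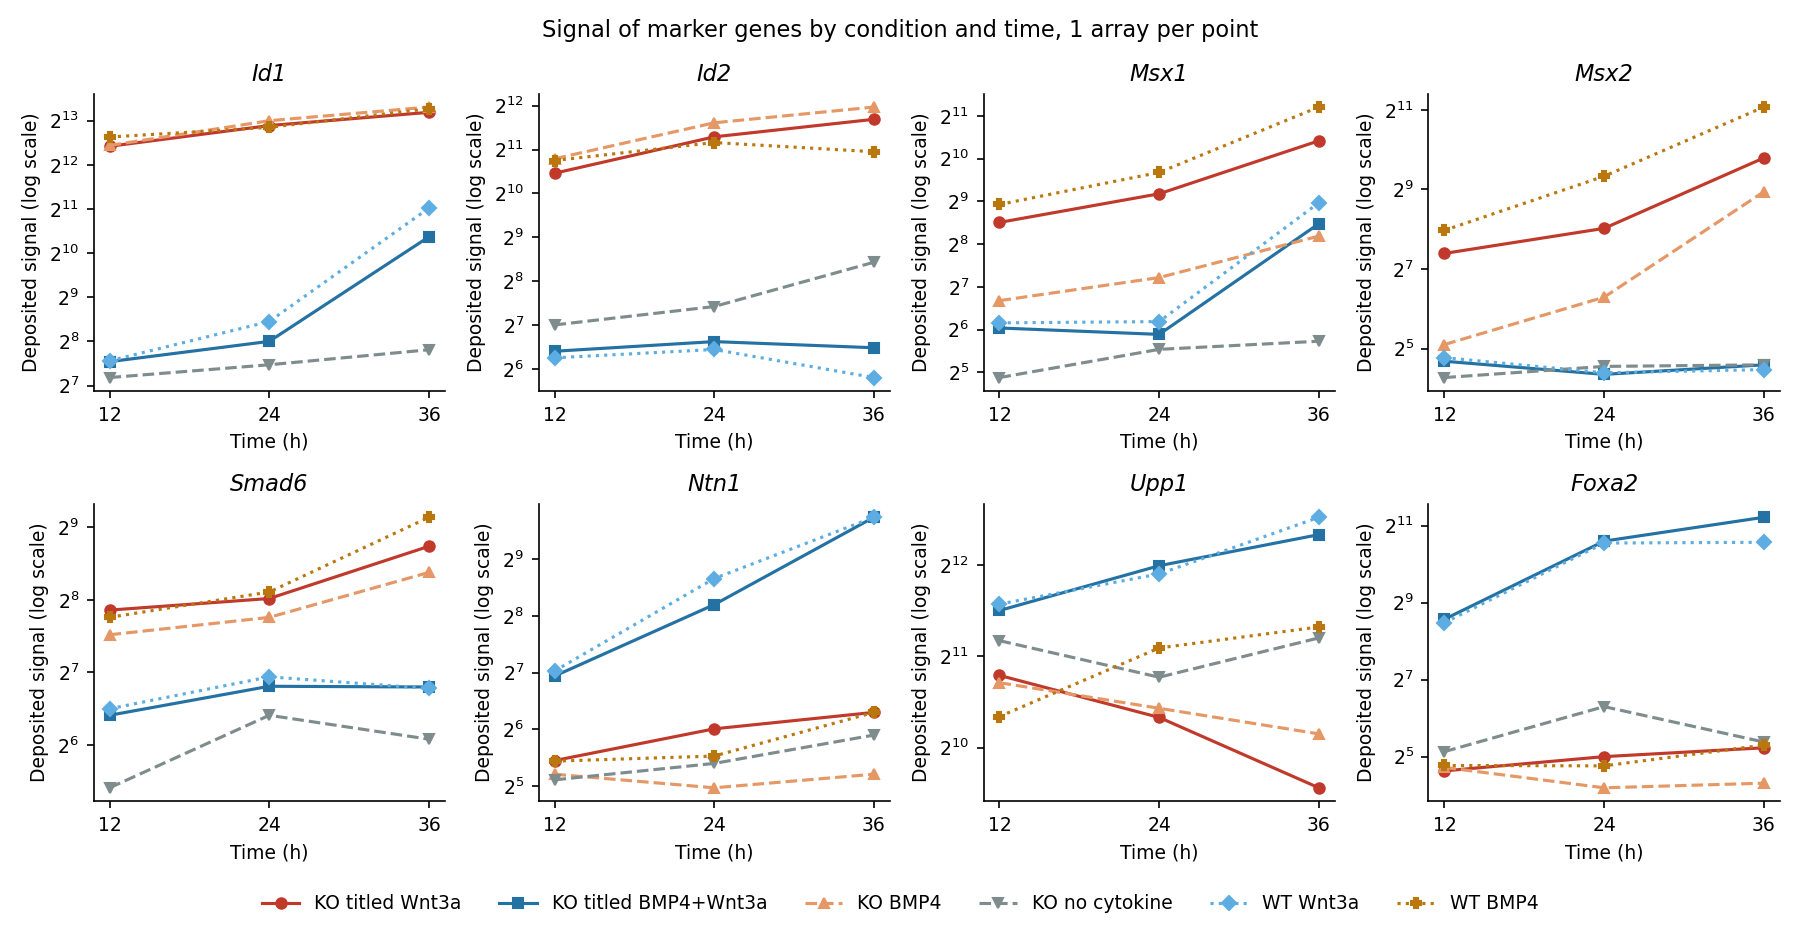
Deposited signal (linear intensity, log axis) of 8 genes against time in hours, 1 array per point, in KO cells titled Wnt3a, titled BMP4+Wnt3a, with BMP4 and without cytokine and in WT cells with Wnt3a or BMP4. For Id1 the arrays titled Wnt3a (5480 to 9345) run with both BMP4 groups, and for Foxa2 the arrays titled BMP4+Wnt3a (380 to 2385) run with WT cells given Wnt3a (357 to 1520).

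Differences on the log2(signal + 16) scale, averaged over the 3 times, were then tested for all genes. On this scale the changes of dim genes come out too small. The limma model held all 21 arrays at 12 to 36 h in 7 conditions, with time as a block, and the threshold was an adjusted p under 0.05 (Benjamini-Hochberg). Of 13256 genes tested 45 passed (0.339%), 26 higher (0.196%) and 19 lower (0.143%) in the arrays titled Wnt3a, and 966 (7.29%) had an unadjusted p under 0.05. A mean difference of at least 1 log2 unit was found for 137 genes (1.03%). All 45 kept 1 direction at all 3 times, as did 33.4% of all genes, and only for Dusp5 and Wls did the ranges of the groups over the times overlap. Among all genes 1126 (8.49%) had ranges that did not overlap. The count rested on single arrays. Leaving out all arrays at 24 h left 1 gene, Id2. The count was 24 with the 12 h time left out and 37 with 36 h left out. Without the 24 h or the 36 h array titled BMP4+Wnt3a it was 4 and 5, and without the 24 h or the 36 h array titled Wnt3a 11 and 4.

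**Figure D2:**
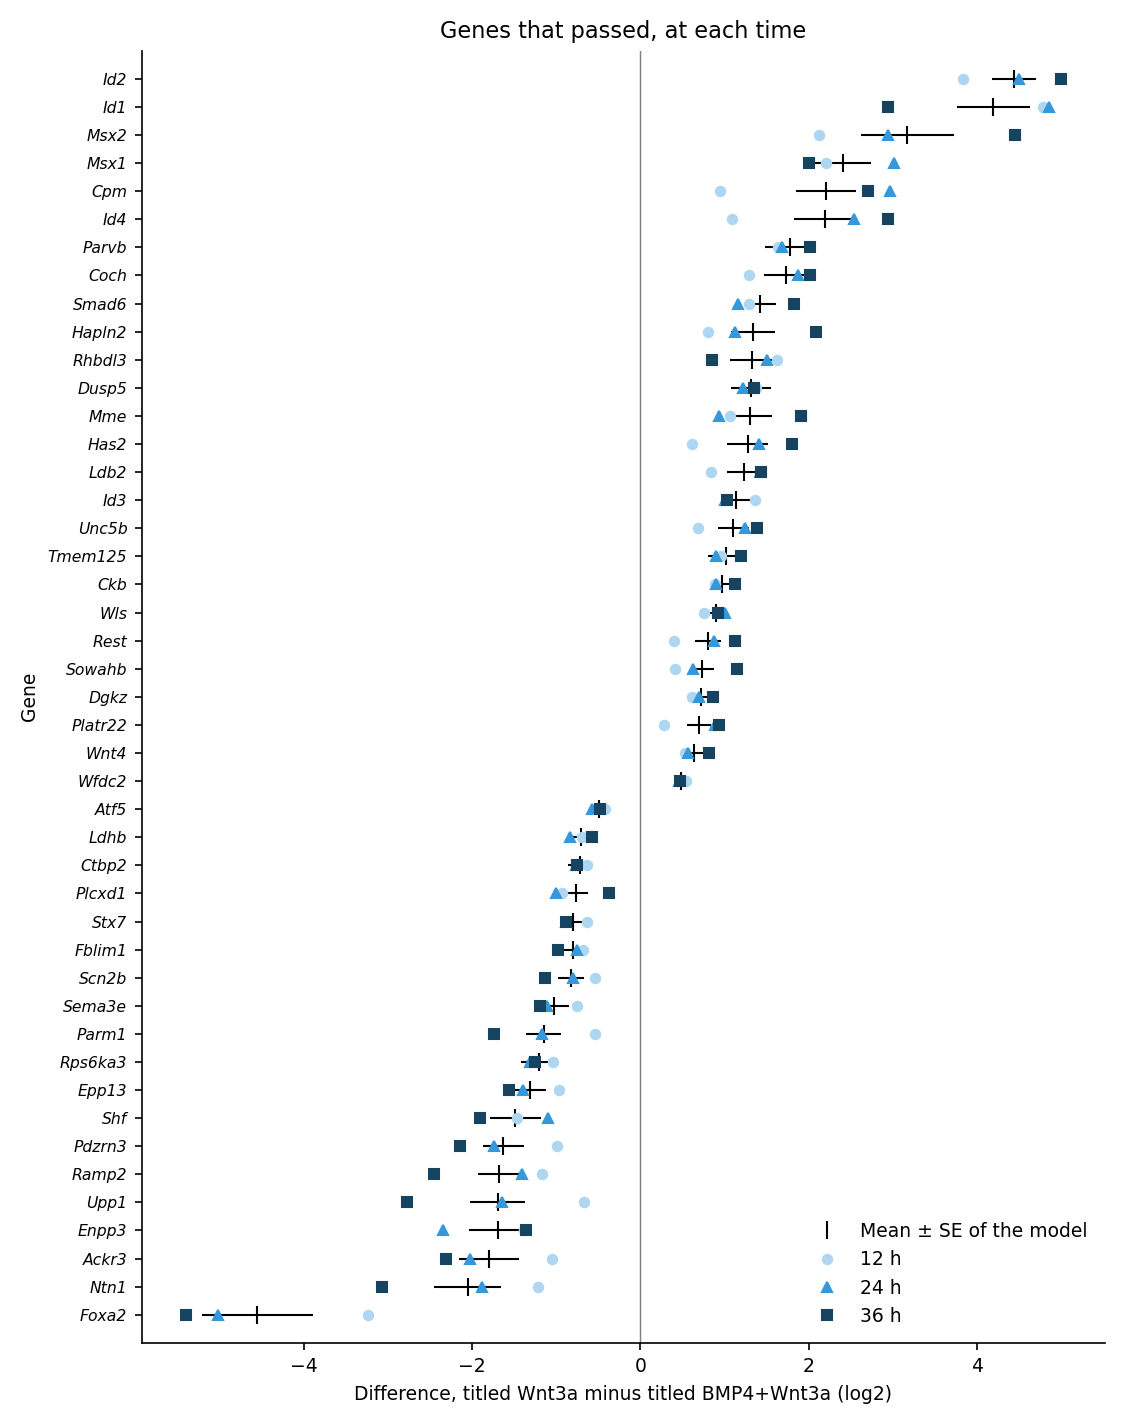
Difference of each of the 45 genes that passed, titled Wnt3a minus titled BMP4+Wnt3a (log2), at 12, 24 and 36 h (symbols) and as the model mean ± SE (bar and tick). Id2, with 4.44, is at the top and Foxa2, with -4.55, at the bottom, and no gene changes side between times.

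Id2, Id1, Msx2 and Msx1, of the BMP-SMAD response list, had the largest differences of the higher group. Id4, Smad6 and Id3 of that list ranked behind Cpm (2.20). Id2 was higher by 4.44 ± 0.26 (SE, n = 3 times per group, limma adjusted p = 1.23e-07), Id1 by 4.19 ± 0.43 (adjusted p = 2.30e-04) and Msx2 by 3.17 ± 0.55 (adjusted p = 0.0172). Msx1, a homeobox partner of Msx2, read 365, 580 and 1370 against 65.8, 59.3 and 357 and was higher by 2.41 ± 0.33. Id4 read 263, 265 and 576 against 115, 33.4 and 60.1 and was higher by 2.19 ± 0.37. Id3 was bright in both groups, with 3468, 4096 and 5442 against 1380, 2062 and 2702, a difference of 1.13 ± 0.17. Smad6, which blocks BMP receptors from within the cell, read 232, 260 and 428 against 85.0, 112 and 111 and was higher by 1.43 ± 0.18 (adjusted p = 0.00291). Of the 13 list genes tested 7 passed, all higher, and the list's median difference was 1.43 beside 0.01 over all genes. Of the 6 that did not pass, Smad7 differed by 1.67 ± 0.45 (adjusted p = 0.213), Gata3 by 1.26 ± 0.58, Gata2 by 0.97 ± 0.33 and Bambi, a decoy receptor, by 0.95 ± 0.28. Smad7 read 419, 541 and 580 against 260, 228 and 53.4, so the groups stood furthest apart at 36 h. Hey1 and Tfap2a lay at 0.21 and 0.19. In all, 11 of the 13 had groups that did not overlap, each higher in the arrays titled Wnt3a, beside 4.25% of all genes. In bulk RNA, more cells with a transcript and more of it per cell cannot be told apart.

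Promoter sequences are shown for the 4 genes with a BMP or WNT motif among the Id, Msx, Smad6 and Foxa2 promoters of the RefSeq table (GRCm38.p6), each from 250 bases before to 50 after the start. Capitals mark GGCGCC, a GC-rich SMAD motif, GTCTAGAC, the palindromic SMAD motif, and ATCAAAG, a TCF/LEF motif, searched on both strands. Id2 lies at chr12:25096043-25096342 (minus strand), Id4 at chr13:48260866-48261165 (plus), Smad6 at chr9:64022010-64022309 (minus) and the third of 3 Foxa2 starts at chr2:148045415-148045714 (minus).
Id2: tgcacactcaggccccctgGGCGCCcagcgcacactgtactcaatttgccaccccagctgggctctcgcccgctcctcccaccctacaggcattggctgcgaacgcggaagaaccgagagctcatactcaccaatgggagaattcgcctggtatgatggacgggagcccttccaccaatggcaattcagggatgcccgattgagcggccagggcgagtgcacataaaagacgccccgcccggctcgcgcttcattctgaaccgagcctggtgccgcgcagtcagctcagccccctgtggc
Id4: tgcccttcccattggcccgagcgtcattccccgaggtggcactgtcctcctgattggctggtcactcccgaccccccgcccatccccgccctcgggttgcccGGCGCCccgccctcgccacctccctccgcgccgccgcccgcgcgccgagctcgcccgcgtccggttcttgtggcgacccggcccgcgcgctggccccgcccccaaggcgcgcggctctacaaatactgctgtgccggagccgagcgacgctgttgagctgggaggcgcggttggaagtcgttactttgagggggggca
Smad6: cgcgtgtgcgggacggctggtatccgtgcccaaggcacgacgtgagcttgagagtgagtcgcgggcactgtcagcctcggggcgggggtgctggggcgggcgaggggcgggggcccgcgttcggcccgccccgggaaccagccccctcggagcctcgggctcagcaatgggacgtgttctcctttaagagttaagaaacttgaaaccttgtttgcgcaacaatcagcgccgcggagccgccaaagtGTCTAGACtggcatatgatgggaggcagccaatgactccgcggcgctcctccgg
Foxa2: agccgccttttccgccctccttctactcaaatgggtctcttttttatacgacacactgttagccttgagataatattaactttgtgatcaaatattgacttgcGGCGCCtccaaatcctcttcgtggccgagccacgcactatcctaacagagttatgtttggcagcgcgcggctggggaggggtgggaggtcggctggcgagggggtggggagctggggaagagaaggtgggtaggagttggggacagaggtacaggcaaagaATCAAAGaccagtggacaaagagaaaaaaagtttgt
GGCGCC stands at position -231 in Id2, -148 in Id4 and -147 in Foxa2, counted from the start, and GTCTAGAC at -4 in Smad6. ATCAAAG lies after the start of the same Foxa2 promoter. No match overlaps another. Id3, Msx1, Msx2 and the other Foxa2 starts hold none of the 3, which says only that these letters are not in these windows. For Id1 no promoter was given, so it was not searched. Among all 32851 RefSeq promoters given, 11.9% hold GGCGCC, 0.213% GTCTAGAC and 3.73% ATCAAAG, and among the promoters of 10692 genes tested 24.3%, 0.318% and 3.26%. GGCGCC is in 9 of 21 higher genes with a promoter given and in 4 of 16 lower genes.

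The other genes higher in the arrays titled Wnt3a were of mixed function. Cpm, a membrane carboxypeptidase, read 256, 355 and 662 against 124, 32.0 and 89.3, a difference of 2.20 ± 0.36. Parvb, a focal adhesion protein, read 360, 338 and 324 against 105, 98.4 and 69.6 (1.77 ± 0.30), but its other probe set above the filter gave -0.03. Coch, an extracellular protein of the inner ear, read 141, 156 and 205 against 47.2, 32.2 and 39.1 (1.73 ± 0.26). Hapln2, a hyaluronan link protein, differed by 1.34 ± 0.26, and Has2, a hyaluronan synthase, by 1.27 ± 0.24. Dusp5, a nuclear phosphatase of ERK, differed by 1.31 ± 0.24, with 137, 193 and 399 against 41.6, 77.2 and 154. The values climbed with time in both groups, so the ranges overlapped although each pair differed. Mme, the peptidase neprilysin, differed by 1.30 ± 0.27, Rhbdl3, a rhomboid-like protein, by 1.32 ± 0.26, and Ldb2, a LIM domain-binding cofactor, by 1.23 ± 0.20.

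Differences near or under 1 log2 unit passed for further genes. Ckb, the brain creatine kinase, read 2592, 2684 and 4211 against 1448, 1438 and 1965 (0.97 ± 0.14). Rest, the repressor of neuronal genes, read 1409, 1585 and 1618 against 1090, 867 and 781 (0.80 ± 0.15). Dgkz, a diacylglycerol kinase, differed by 0.72 ± 0.12, and Unc5b, a netrin receptor, by 1.10 ± 0.18, although the other Unc5b probe set gave -0.03. Wls, which carries WNT ligands to the cell surface, read 891, 1687 and 3566 against 541, 838 and 1911 (0.89 ± 0.15). Wnt4 was the only one of 18 tested WNT ligands and receptors to pass. It read 247, 315 and 367 against 164, 214 and 218 (0.64 ± 0.13, adjusted p = 0.0461), and its other probe set gave -0.03. Tmem125, Sowahb, Platr22 and Wfdc2 differed by 1.01, 0.73, 0.70 and 0.49.

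Of the 19 genes lower in the arrays titled Wnt3a, Foxa2 stood far from the rest, at -4.55 ± 0.66 (limma adjusted p = 0.00592). Ntn1, the guidance ligand netrin, read 43.7, 64.4 and 78.8 against 123, 294 and 855, a difference of -2.05 ± 0.40 (adjusted p = 0.0363). Its signal in the arrays titled BMP4+Wnt3a matched the 131, 405 and 855 of WT cells with WNT3A more closely than the 34.5, 42.2 and 59.7 of KO cells without cytokine. Upp1, uridine phosphorylase, read 1771, 1287 and 755 against 2896, 4068 and 5149 and differed by -1.70 ± 0.33. The receptor genes Ackr3, a CXCL12 scavenger, and Ramp2, a partner of the calcitonin receptor-like receptor, differed by -1.80 ± 0.36 and -1.68 ± 0.25. Ramp2 read 231, 184 and 143 against 556, 534 and 923, whereas Ackr3 was dim in the arrays titled Wnt3a, with 7.62 to 13.5 against 44.3 to 135. Enpp3, an ectoenzyme, read 274, 223 and 280 against 760, 1243 and 798 (-1.70 ± 0.34). Pdzrn3, a ubiquitin ligase, differed by -1.63 ± 0.24, Shf, an adaptor protein, by -1.49 ± 0.30, and Epp13 by -1.31 ± 0.19.

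Smaller differences completed the lower group. Rps6ka3, a kinase below ERK, read 399, 350 and 413 against 861, 910 and 1053 (-1.20 ± 0.22). Parm1 differed by -1.15 ± 0.21 and Sema3e, a semaphorin, by -1.02 ± 0.18. The remaining 7 genes lay between -0.82 and -0.49. They were Scn2b, a sodium channel subunit, Fblim1, Stx7, a syntaxin of endosomes, Plcxd1, the corepressor Ctbp2, the lactate dehydrogenase subunit Ldhb, and Atf5, a stress-responsive transcription factor. Ctbp2 and Ldhb were bright throughout, Ctbp2 with 2957, 3214 and 2817 against 4576, 5673 and 4608, and Ldhb with 3148 to 3591 against 5221 to 5833. Of the 45 genes 28 have more than 1 probe set. The 29 other probe sets above the filter, of 21 genes, gave the same direction in 26 cases, and those of Parvb, Unc5b and Wnt4 did not. Sizes differed too: the other probe set of Ntn1 gave -0.09 against -2.05, and one of Enpp3 gave -0.03 against -1.70. When all probe sets of a gene were averaged, Ntn1 differed by -1.07 and still passed (limma adjusted p = 0.0423). Msx2 (2.15 ± 0.48) and Enpp3 (-0.81 ± 0.18) then had an adjusted p of 0.101 and did not pass. In all, 32 genes passed with averaged probe sets, and only 27 of them were among the 45. Cpm, Parvb, Pdzrn3, Has2, Rest, Unc5b and Wnt4 were among those lost.

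The same genes were set beside the response to BMP4 alone in KO cells, which shares no array with this comparison. Both take each gene's spread from the same fit, so calls in the 2 are not independent. Of the arrays behind that response, KO cells without cytokine at 24 h had a Gapdh ratio of 2.68. Directions in this paragraph are those under the array names. Of the 45 genes 21 also passed there, in the same direction, which is 46.7% of the 45 and 28.4% of the 74 genes that BMP4 alone changed (0.558% of all tested, 0.241% higher and 0.317% lower). All 45 had the same sign, beside 61.6% of all genes, and 41 had it at all 3 times, beside 22.6%. Over 13256 genes the differences correlated with Pearson r = 0.480 and Spearman rho = 0.363, a description across genes, which are not independent replicates. Id2 differed by 4.44 here and by 3.74 with BMP4 alone, Smad6 by 1.43 and 1.61, and Ramp2 by -1.68 and -1.54. Against BMP4 in WT cells, again without a shared array, 29 genes passed both, 64.4% of the 45 and 6.40% of the 453 called there (3.42% of all tested). Signs agreed for 42, beside 56.3% of all genes. Platr22, Tmem125 and Wfdc2 had the opposite sign. The array of WT cells without cytokine at 36 h, used for the WT response, had a Gapdh ratio of 2.30. Under the titles every sign of the difference between the 6 arrays turns. Then 0 of the 45 had the sign of BMP4 alone in KO cells, beside 38.4% of all genes, with r = -0.480, and 3 of the 45 that of BMP4 in WT cells, beside 43.7%.

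**Figure D3:**
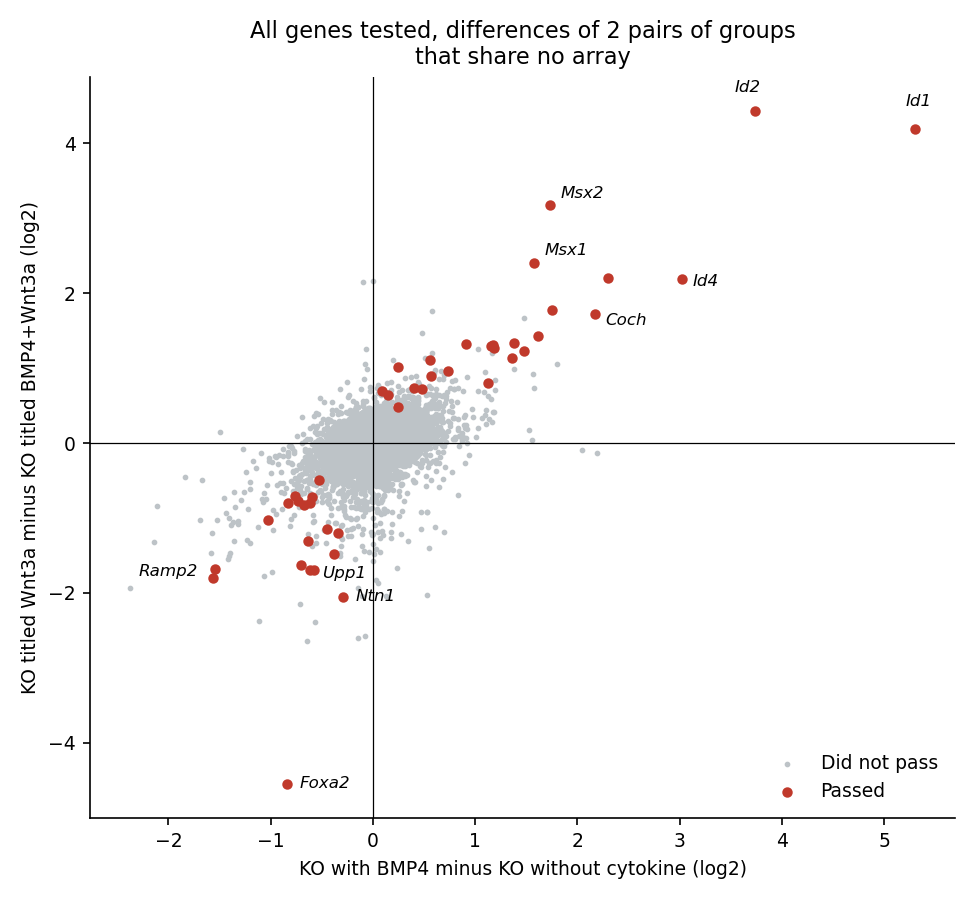
Difference of each of 13256 genes between the arrays titled Wnt3a and titled BMP4+Wnt3a (vertical, log2) against the difference between KO cells with BMP4 and without cytokine (horizontal, log2), with the 45 genes that passed in red. Signs are those under the array names: all 45 have the same sign on both axes, which under the titles would be the opposite sign, and Foxa2 (-4.55 against -0.84) and Ntn1 (-2.05 against -0.29) lie far below the diagonal.

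Whether a gene differed more between the 6 arrays than with BMP4 alone was tested as a difference of differences, first under the array names. No gene passed in limma after adjustment (smallest adjusted p = 0.999), and 360 genes (2.72%) had an unadjusted p under 0.05. For Foxa2 the difference was -3.72 ± 0.93 (unadjusted p = 0.00104) and for Ntn1 -1.76 ± 0.56 (unadjusted p = 0.00612). For Id2 it was 0.70 ± 0.37, for Msx2 1.43 ± 0.78, for Id1 -1.11 ± 0.61 and for Smad6 -0.19 ± 0.26. A p over the threshold does not show that these responses are alike. With a linear time course per condition 5 genes passed, Foxa2, Ntn1, Chrd, Ada and Irs4. Under the titles, a test added after the data were seen, the sign of the first difference turns and 230 genes (1.74%) passed, among them 44 of the 45. Id1 then gave -9.50 ± 0.61, Id2 -8.18 ± 0.37 and Foxa2 5.39 ± 0.93. The 45 were chosen for the size of their own difference, and under the array names all share the sign of BMP4 alone. With the sign turned the 2 terms add up in size, so that 44 passed follows largely from this choice. The result of this test thus rests on which labels are right.

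Each group was also set beside KO cells without cytokine. Foxa2 differed by -0.48 in the arrays titled Wnt3a and by 4.07 in those titled BMP4+Wnt3a. For Ntn1 the values were 0.33 and 2.38, for Rps6ka3 -0.10 and 1.11, for Epp13 -0.11 and 1.21, and for Shf -0.41 and 1.08. These genes of the lower group were thus near the level without cytokine in one group and above it in the other. Others were below it: Sema3e differed by -1.59 and -0.57, Ramp2 by -1.59 and 0.09, Pdzrn3 by -1.62 and 0.01, and Enpp3 by -3.14 and -1.44. Of the higher group, Id1 differed by 5.22 and 1.02, Id2 by 3.39 and -1.05, and Msx2 by 3.20 and 0.03. Both columns share the KO arrays without cytokine.

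Whole arrays were compared by counting genes at least 1 log2 unit apart. Between the groups 53 genes were that far apart at 12 h, 139 at 24 h and 513 at 36 h. The arrays titled BMP4+Wnt3a were closer to WT cells with WNT3A than to any other condition at 12 h (25 genes) and 36 h (31 genes), the closest of the 21 pairs of conditions at those times. At 24 h that pair was 176 genes apart, and of all arrays its WT array had the highest Gapdh ratio, 4.03. The part of RNA quality in this was not tested. The arrays titled Wnt3a were 31, 69 and 473 genes from WT cells with BMP4 and 229, 309 and 646 from KO cells with BMP4. From WT cells with WNT3A they were 62, 333 and 662 genes apart, and from WT cells without cytokine 260, 353 and 480. At 36 h WT cells without cytokine were thus almost as close as WT cells with BMP4.

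More genes stood apart at the later times, as in other pairs of conditions, though not in all. Between WT and KO cells without cytokine, 100, 124 and 413 genes were at least 1 log2 unit apart at 12, 24 and 36 h. At 12 h 23 genes were at least 1 log2 unit higher in the arrays titled Wnt3a and 30 lower, at 24 h 40 and 99, and at 36 h 168 and 345. Among the 45 genes the median size of the difference was 0.94, 1.17 and 1.39 at the 3 times, and 31 had their largest difference at 36 h. Across all genes the differences at 24 and 36 h correlated with Pearson r = 0.466 and those at 12 and 36 h with 0.249. Id2 differed by 3.83, 4.49 and 4.995, Msx2 by 2.12, 2.95 and 4.45 and Foxa2 by -3.24, -5.02 and -5.40. For Id1 the differences were 4.79, 4.85 and 2.94, and its signal in the arrays titled BMP4+Wnt3a reached 1323 at 36 h. In WT cells with WNT3A Id1 read 189, 350 and 2077. As a slope per 12 h no difference passed (smallest adjusted p = 0.0812, 742 genes or 5.60% with an unadjusted p under 0.05). The smallest p-values were those of Foxj1, a regulator of motile cilia, at -2.26 ± 0.31, the BMP antagonist Chrd at -2.13 ± 0.31 and adenosine deaminase, Ada, at -1.74 ± 0.25. Leaving out the 12 h or the 24 h array titled BMP4+Wnt3a let 8 and 7 slopes pass.

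Genes of endoderm, node and axial mesoderm lay lower, on the median, in the arrays titled Wnt3a. Of 17 tested only Foxa2 passed, and the median difference was -0.44, with values up to 0.69. An unadjusted p under 0.05 (limma) was found for 5 lower genes and 1 higher gene, beside 525 and 441 of all 13256 genes. Chrd, made by the node, read 67.6, 69.6 and 74.0 against 81.0, 695 and 2150 and differed by -2.58 ± 0.70 (limma adjusted p = 0.217). Gsc, of the anterior streak, read 8.52 to 10.3 against 40.5, 82.7 and 131 (-1.82 ± 0.49). Foxa1 read 269 at 36 h in the arrays titled BMP4+Wnt3a and at most 34.5 in the other 5 arrays. Sox17, of definitive endoderm, read 72.0 to 85.6 against 59.7 to 106. The groups did not overlap for 4 list genes, all lower in the arrays titled Wnt3a, beside 4.24% of all genes.

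Posterior genes also had a negative median, with none past the threshold. Of 13 posterior and presomitic mesoderm genes the median difference was -0.76, and 5 did not overlap, all lower, beside 4.24% of all genes. Nkx1-2, of the caudal epiblast, read 309, 405 and 855 against 1176, 3769 and 6654 (-2.65 ± 0.71, limma adjusted p = 0.214). Cdx1, a WNT-responsive homeobox gene, read 52.7, 39.4 and 75.1 against 111, 317 and 2006 (-2.60 ± 0.75, adjusted p = 0.267). The Notch ligands Dll1 and Dll3 differed by -1.78 ± 0.72 and -1.16 ± 0.50. At 12, 24 and 36 h Dll1 differed by -0.72, -0.86 and -3.74 and Dll3 by -0.47, -0.67 and -2.34, and at 36 h Dll1 read 97.0 against 1607. Among 10 Hox genes none passed, and Hoxb1 read 115, 93.7 and 609 against 143, 635 and 6123.

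**Figure D4:**
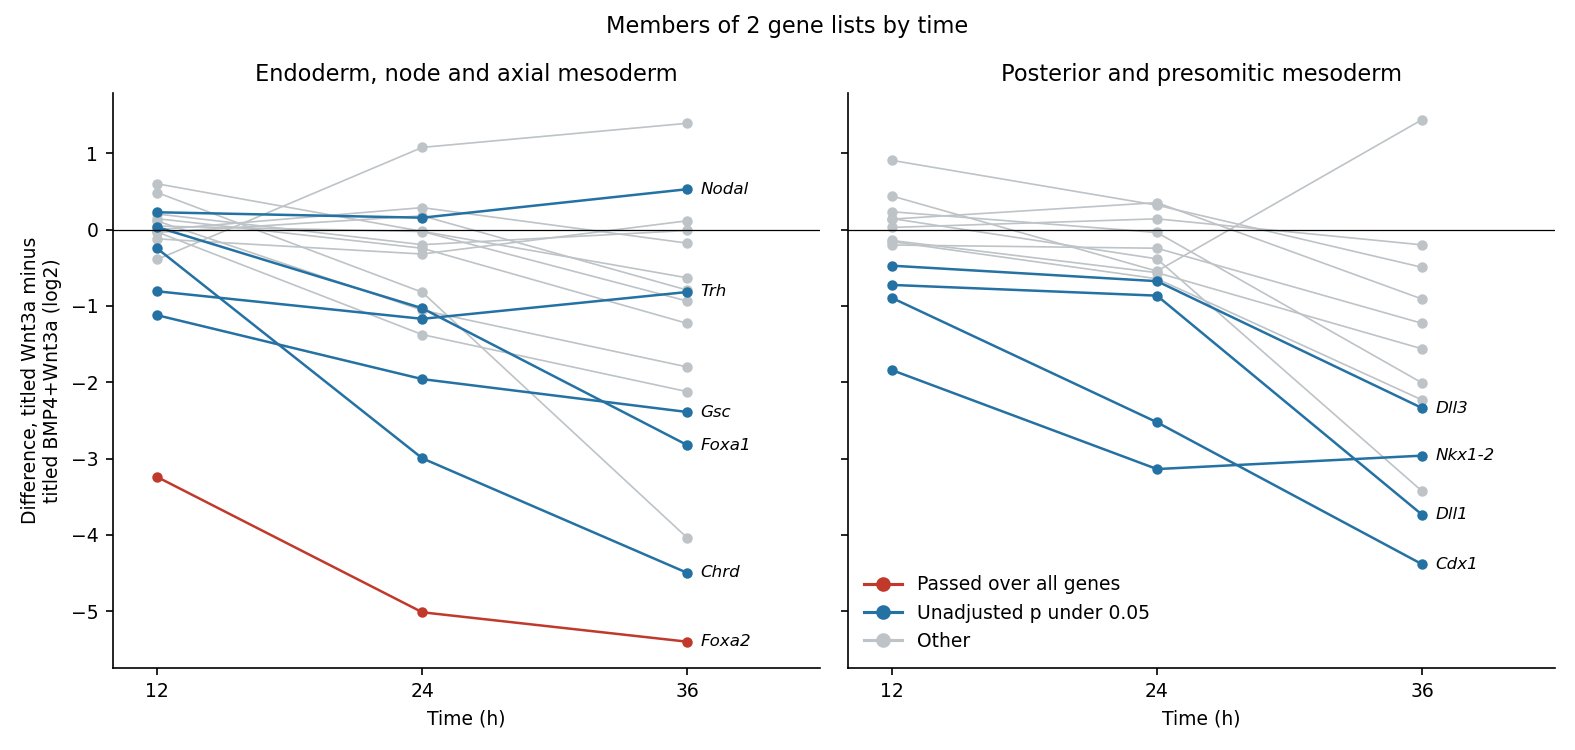
Difference titled Wnt3a minus titled BMP4+Wnt3a (log2) of each tested gene of 2 lists against time in hours. Foxa2, the 1 gene that passed, lies at -3.24, -5.02 and -5.40, and genes such as Chrd (-0.25, -3.00, -4.50) and Cdx1 (-0.89, -2.52, -4.39) lie lower at each later time.

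WNT response genes had a median difference of -0.36 over 15 tested, and none passed. Axin2, a feedback inhibitor of the pathway, read 380, 326 and 560 against 407, 455 and 885 (-0.36 ± 0.48), and Lef1 differed by -0.63 ± 0.31. Sp5 read 815, 488 and 1269 against 1046, 2150 and 5833, a difference of -1.54 ± 0.85 (limma adjusted p = 0.788). In KO cells without cytokine the list stood lower, by a median of 0.49 against the arrays titled Wnt3a and of 1.09 against those titled BMP4+Wnt3a.

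Among 12 BMP ligands, receptors and antagonists none passed, and the median difference was -0.004. At all 3 times 3 of them were higher and 3 lower in the arrays titled Wnt3a. Bmp4 itself read 95.7, 73.0 and 744 against 126, 85.6 and 648 (-0.07 ± 0.80). Fst, the activin-binding protein follistatin, read 690, 891 and 2165 against 1510, 3692 and 5367 (-1.46 ± 0.63), and Bmp7 differed by -0.75 ± 0.21. Of 14 SMAD proteins and cofactors none passed either, and the median was -0.01.

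Primitive streak genes were split, with none of 16 past the threshold and a median of 0.00. Evx1, of the posterior streak, read 639, 699 and 1978 in the arrays titled Wnt3a and 85.6, 89.3 and 1053 in the others (2.16 ± 0.59, limma adjusted p = 0.218). BMP4 alone in KO cells gave -0.00 for Evx1, and in WT cells 4.67. Mixl1 and Eomes differed by -0.65 ± 0.85 and 0.39 ± 0.62. Of 13 germline genes none passed: Prdm1, which encodes Blimp1, read 82.1, 116 and 229 against 53.1, 90.5 and 108 (0.62 ± 0.31), Prdm14 differed by 0.35 ± 0.57 and Tfap2c by -0.22 ± 0.38. Tbx3, of the lateral mesoderm and amnion list, read 265, 261 and 461 against 172, 156 and 143 (0.98 ± 0.25, adjusted p = 0.193).

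Markers of other cell types did not pass in any of 4 lists. The summed signal of 13 extraembryonic endoderm markers was 4797 to 7104 in the arrays titled Wnt3a and 4386 to 7032 in the others, mostly from Sparc and Lamb1, while Afp lay at 4.63 to 18.3 and Ttr at 9.51 to 32.0 across the 6 arrays. Trophoblast markers summed to 2558 to 7203 against 2214 to 10821. Krt8 led them, with 1160, 2419 and 5008 against 923, 3350 and 9153, and was thus higher in the arrays titled BMP4+Wnt3a at 24 and 36 h. Krt7 and Cdx2 were also higher in those arrays at 36 h, with 64.4 against 425 and 79.9 against 422. Other members were higher in the arrays titled Wnt3a at 36 h, Hand1 with 385 against 23.6, Gata3 with 141 against 4.29 and Eomes with 709 against 194, and the list's median difference was 0.34. The trophoblast factor Elf5 was at 3.61 to 19.0. Blood and endothelial markers summed to 828 to 1174 against 946 to 1595 and fibroblast markers to 357 to 611 against 412 to 546. The ranges of the summed signals overlapped for all 4 lists, but those of some members did not. Higher in the arrays titled Wnt3a without overlap were 1 extraembryonic endoderm, 2 trophoblast and 1 blood marker, beside 4.25% of all genes. Lower was 1 fibroblast marker, beside 4.24%: Dcn read 19.4, 10.1 and 5.21 against 36.0, 44.3 and 91.1. Lmo2, of the blood list, read 93.1, 53.1 and 184 against 151, 155 and 750. The part of such cells in the differences above was not tested.

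**Figure D5:**
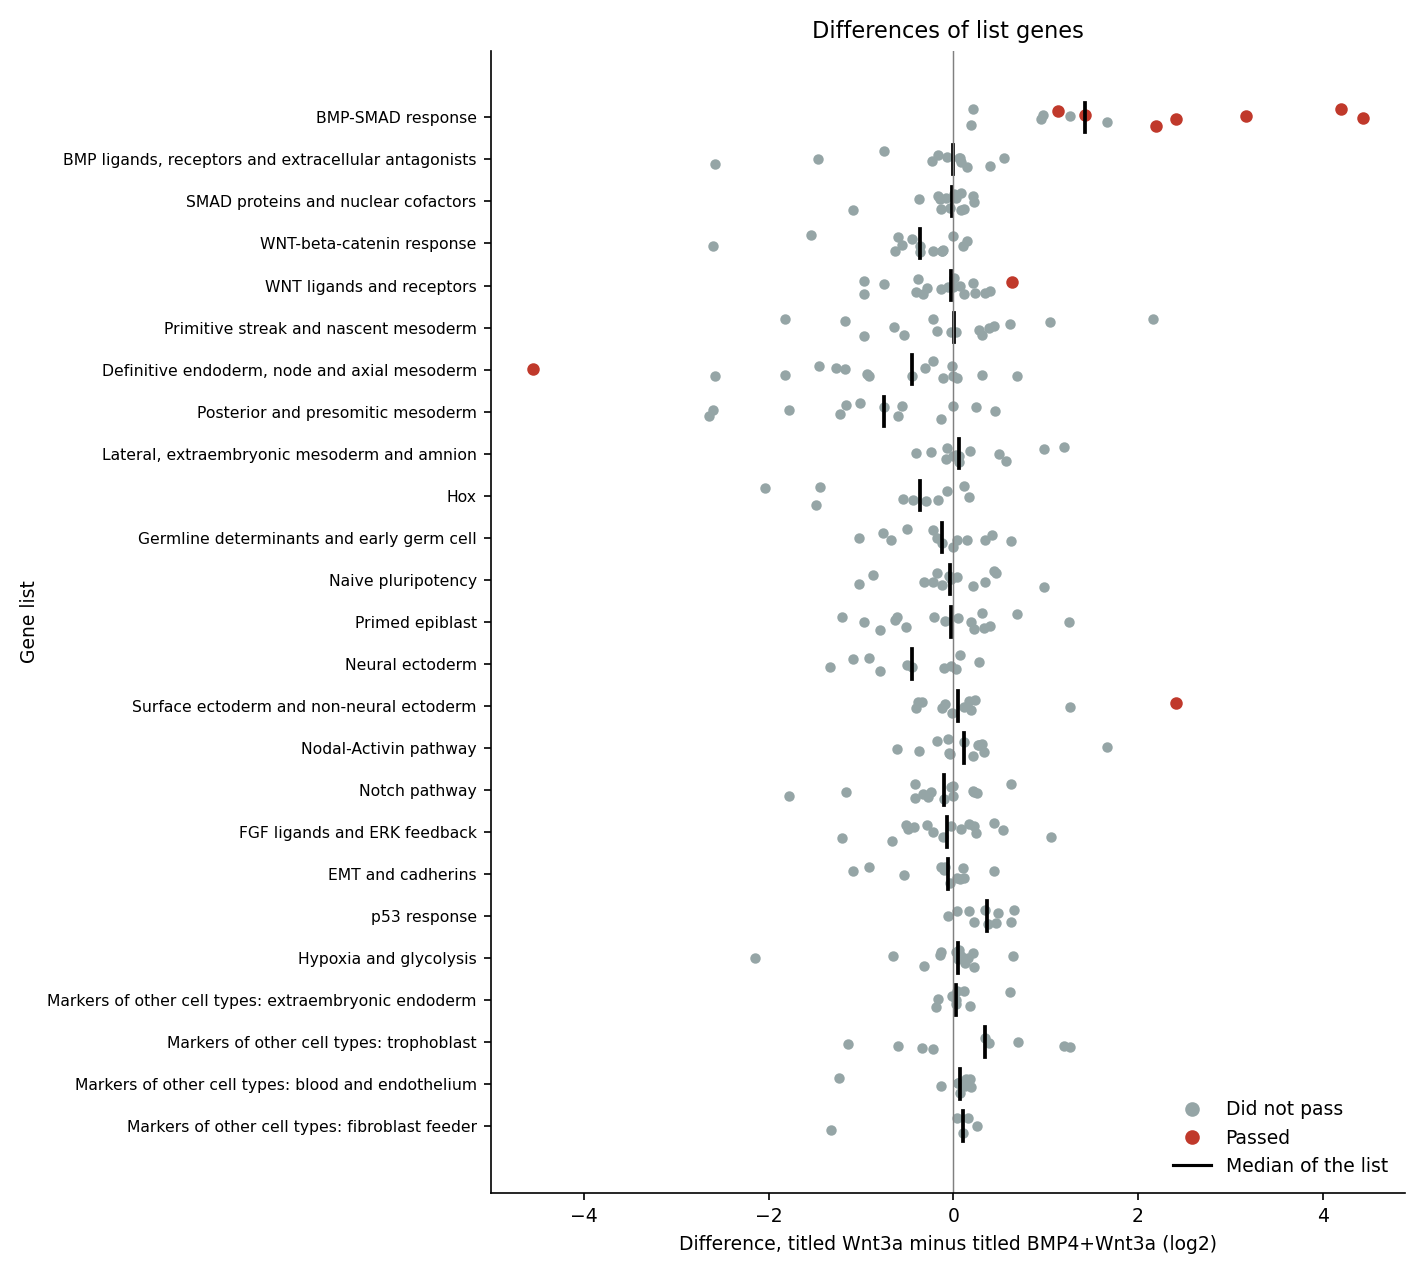
Difference titled Wnt3a minus titled BMP4+Wnt3a (log2) of each tested gene of 25 lists, with the median of each list as a black bar and genes that passed in red. In the BMP-SMAD response list 7 of 13 passed and the median is 1.43, while the other lists hold at most 1 gene that passed.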

How the data were processed

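The deposited series matrix gives 1 linear intensity per probe set and array; per the labels, cDNA amplified from total RNA was labelled with biotin. The method by which the authors summarised probes was not given in the sources used here. Of 45101 probe sets, 34958 name 1 gene through the platform annotation, 932 several and 9211 none. Each of 18194 genes was represented by its brightest probe set, and 13256 exceeded the array median on at least 3 arrays. Values were taken as log2(value + 16), quantile normalized and fitted with limma 3.58.1 (R 4.3.3; trended prior, 12 residual degrees of freedom, 7 for slopes) on 21 arrays of 7 conditions with time as a block. Arrays at 0 h entered no test. In this model an SE or p-value rests on how far a gene departs from additive effects of condition and time. That departure is pooled over all 21 arrays in 7 conditions, so it does not measure the spread of the 3 paired differences. Nothing gives separate cultures as replicates.

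Members and 25 gene lists (322 genes, 308 with a probe set) were chosen with earlier results of these data known, so list counts are no independent support. Named genes are those that passed, the markers Id1, Id2, Msx2 and Foxa2, list members needed to describe a list, and the slopes of smallest p. On simulated data of 13256 genes, the main comparison called 92% and 97% of genes changed by 1 and 2 log2 units. Of its 200 calls 11 were false. The slope called 76% and 95%, and the difference of differences 69% and 96%. The simulated noise was normal and independent between arrays, around a flat mean without time courses. Shifts in the main comparison were equal at all 3 times, so these shares do not give the power in the real data. There, of 137 genes with a mean difference of at least 1 log2 unit, 30 passed. Alternatives covered scaling, offsets of 1 and 64, filters, probe set means, prior trend, array weights, arrays fitted, the time term, a 2-fold limit and each array or time left out. A fit without the 3 arrays of highest Gapdh ratio and the difference of differences with the labels of the 6 arrays exchanged were added after the data were seen. Figures used matplotlib 3.10.9.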

Additional observations from a re-analysis of the deposited data

Results flagged for a closer look

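Under the array names, 2 genes differed between the arrays titled Wnt3a and titled BMP4+Wnt3a in the opposite direction to the response to BMP4 in WT cells at all 3 times. For Platr22, a noncoding RNA of pluripotent cells, the difference between both responses was 0.92 ± 0.20 (limma, unadjusted p = 0.000295, adjusted p = 0.178). BMP4 in WT cells gave -0.16, -0.20 and -0.30 for it at 12, 24 and 36 h, and the 6 KO arrays gave 0.28, 0.89 and 0.93. For Wfdc2, a secreted protease inhibitor-like protein, it was 0.59 ± 0.12 (unadjusted p = 0.000156, adjusted p = 0.164), with -0.13, -0.16 and -0.02 in WT cells against 0.54, 0.46 and 0.47. Over all genes that difference passed for 0 genes in limma, and 1006 had an unadjusted p under 0.05. Under the titles the sign of the 6 arrays turns, and both genes have the sign of the WT response at all 3 times. Over all genes 440 (3.32%) then pass in limma, but not Platr22 (adjusted p = 0.252) or Wfdc2 (adjusted p = 0.104).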

How the results depend on the processing

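The count of 45 genes was 26 with no filter, 207 with array weights, 9 with no time block and 142 with a linear time course per condition, and 1 to 37 when an array or a time was left out. Under the other alternatives it lay between 30 and 50, with 19 of the 45 genes shared when only the 6 arrays were fitted and 33 with the 3 arrays of highest Gapdh ratio left out. For the slope, 3 genes passed with array weights (Foxj1, Ada, Chrd), 4 with only the 12 KO arrays, 3 with the arrays of highest Gapdh ratio left out, and 0 to 8 when 1 array was left out; a slope without a time could not be fitted. For the difference of differences, 5 passed with a linear time course, 230 with the labels of the 6 arrays exchanged and 0 otherwise, and only the 6 arrays could not be fitted, since none is a KO array with BMP4 alone. Over 24 alternatives the 45 genes gave 1080 values, of which 0 changed direction and 606 passed. Id2 passed in all 24, Id1 in 23, Smad6 in 21, Foxa2, Coch and Ramp2 in 20 each, Msx2 in 15, Ntn1 in 12, and Wnt4, Shf and Tmem125, the fewest, in 5 each. No label numbers replicates, and arrays were paired by time: through the time block, which left 9 genes when dropped, and in the fit of only the 6 arrays, which called 36. The cause of these changes was not tested.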

Other observations

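Genes of the epiblast state were mixed. Of 16 primed epiblast genes none passed in limma: Fgf5 read 278, 564 and 246 in the arrays titled Wnt3a against 803, 1448 and 498 (-1.20 ± 0.50), Sox3 differed by -0.79 ± 0.31, and Foxd3 went the other way, with 120, 176 and 100 against 82.1, 54.2 and 17.5 (1.25 ± 0.36). Of 11 neural genes none passed and the median was -0.45, with Tubb3, a neuronal tubulin, at 434, 83.9 and 118 against 843, 260 and 488 (-1.34 ± 0.49). Dusp9, an ERK phosphatase, came close, with 3350, 2241 and 1808 against 1758, 1144 and 809 (1.06 ± 0.23, adjusted p = 0.0745). Ndrg1, of the hypoxia list, read 37.5, 46.9 and 97.7 against 97.0, 545 and 588 (-2.14 ± 0.55, adjusted p = 0.195). The p53 response list had a median of 0.36 over 10 genes, none past the threshold and 4 with groups that did not overlap, all higher in the arrays titled Wnt3a, beside 4.25% of all genes. None passed among 14 naive pluripotency genes (median -0.03), 13 Nodal (0.11), 15 Notch (-0.10), 16 FGF (-0.07), 12 cadherin and EMT (-0.06), 14 hypoxia (0.06), 13 lateral mesoderm and amnion (0.06) and 13 germline genes (-0.12). Of 12 surface ectoderm genes Msx1 passed (median 0.05), and the medians of the other cell type lists were 0.03, 0.34, 0.07 and 0.10 for extraembryonic endoderm, trophoblast, blood and fibroblasts.

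Some differences larger than most that passed belong to no list and were picked after their values were seen. Tgfbr3, a coreceptor for TGF-beta ligands, differed by -2.04, -2.77 and -2.34 at 12, 24 and 36 h (mean -2.38 ± 0.52, limma adjusted p = 0.0721). Gbx2, a homeobox gene, differed by -1.28, -3.18 and -2.69 (adjusted p = 0.184). The axon guidance gene Slit3 differed by -0.81, -1.68 and -3.33 (adjusted p = 0.104).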
